A study of Mus musculus with 14 samples.

Results

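Msx1, Msx2, Rspo1, Rspo2 and Rspo3 were followed across the cells of the Atoh1 lineage of the mouse hindbrain. These 5 of the 31054 genes in the deposited tables were taken by their gene symbol, and each matched 1 row. Hindbrain cells that carried the tdTomato label were sorted by FACS from single C57BL/6J embryos at E14.5 and E18.5, and each embryo gave 1 single-cell RNA library, with 3 libraries for each genotype at each stage (12 libraries in all). Control embryos (Ctrl) were Atoh1Cre/+ and Atoh1S193A/- embryos were Atoh1Cre/S193A, and both carried the Rosa lsl-tdTomato reporter. The Cre allele is a null allele of Atoh1, so the control embryos had 1 working copy of the gene and the mutant embryos had only the copy with the S193A substitution. A mutant and a control library of a stage that share a replicate number were taken as littermates. The paper lists a female control and a male mutant for replicate 1 of E14.5, and embryos of the same sex in every other pair. The part of sex in the differences was not tested. The label marks cells whose ancestors expressed Atoh1, a transcription factor of rhombic lip progenitors, so cells outside that lineage are seen only as far as the sort let them through.

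The roof plate is the dorsal midline of the neural tube. It sends out BMP and Wnt signals, and the adjoining rhombic lip, where Atoh1 is switched on, receives them. Msx1 and Msx2 encode homeodomain repressors that BMP signaling induces in dorsal progenitors. R-spondins are secreted proteins that bind the Lgr4, Lgr5 and Lgr6 receptors and remove the ubiquitin ligases Znrf3 and Rnf43 from the cell surface, which leaves more Wnt receptor in place. They strengthen a Wnt signal and do not start one.

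On GRCm38 (annotation GENCODE M21), Msx1 (ENSMUSG00000048450) lies at chr5:37820485-37824583 on the minus strand, and Msx2 (ENSMUSG00000021469) at chr13:53466884-53473074 on the minus strand. Rspo1 (ENSMUSG00000028871) lies at chr4:124986430-125009099 on the plus strand, Rspo2 (ENSMUSG00000051920) at chr15:43020794-43170826 on the minus strand and Rspo3 (ENSMUSG00000019880) at chr10:29452416-29535867 on the minus strand. Rspo3 overlaps another annotated gene on the same strand, Gm20276, and whether the overlap affected its counts was not tested. The 250 bases before the RefSeq transcription start (GRCm38.p6, 3 of the 5 genes in the table used) are shown for 1 gene of each family, since the 2 families differed in the cells that expressed them. The capitals mark the only match to any of 6 motifs searched on both strands, which were the Tcf and Lef letters CTTTGA and CTTTGT, the Atoh1 E-box CAGATG and the wider E-box CANNTG that contains it, the homeodomain core TAATTG and the Smad core GGCGCC.
Msx1 promoter, chr5:37824586-37824835, minus strand: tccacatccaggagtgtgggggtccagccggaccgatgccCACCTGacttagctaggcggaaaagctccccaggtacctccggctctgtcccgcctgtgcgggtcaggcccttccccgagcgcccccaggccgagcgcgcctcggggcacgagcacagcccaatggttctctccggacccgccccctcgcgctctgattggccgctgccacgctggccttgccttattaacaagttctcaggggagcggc
Rspo1 promoter, chr4:124986180-124986429, plus strand: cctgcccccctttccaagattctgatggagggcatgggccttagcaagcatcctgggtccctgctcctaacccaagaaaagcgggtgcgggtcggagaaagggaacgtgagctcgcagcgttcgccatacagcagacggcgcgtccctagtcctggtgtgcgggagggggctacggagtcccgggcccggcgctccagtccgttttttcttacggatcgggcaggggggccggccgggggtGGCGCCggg
The Msx1 window held 1 CANNTG (the general E-box, here with the letters CACCTG), 210 bases before the start, and no CAGATG. Of the 27025 promoters searched, 66.04% held CANNTG. The Rspo1 window held 1 GGCGCC (the core that Smad1 and Smad5 bind), 9 bases before the start, against 9.536% of all promoters. GC content was 68.0% for Msx1 and 66.8% for Rspo1, and the median over all promoters was 52.0%. A match is a string of letters and was not measured as a site.

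Library totals ranged from 108239001 to 193872318 UMIs, a UMI being 1 counted RNA molecule, and 3248 to 7759 cells per library were kept (34425 at E14.5 and 31819 at E18.5). At E14.5, 3248, 6352 and 6568 of 7972, 10407 and 12869 barcodes were kept in control libraries 1, 2 and 3. In the mutant libraries 4773, 6913 and 6571 of 9672, 9000 and 10812 were kept, a larger part in each pair. The limit of 5% mitochondrial UMIs lay near the medians of these libraries (3.67% to 5.07%). Between 0.1631% and 0.5285% of barcodes were shared between any 2 of the 12 libraries. At E14.5, control libraries 1 and 2 carry Cell Ranger 3.1.0 in their headers and all 10 other libraries carry 5.0.1, so the version moves with genotype at that stage. Atoh1, measured at its 3′ end, checks no label because the mutant allele is transcribed. Its level in all kept cells of E14.5 in CPM (UMIs of the gene per 1e6 UMIs of the library) was 83.0 ± 46.4 in control and 110 ± 30.0 in mutant libraries (SD, n = 3 each).

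Cells were clustered without the 5 genes, and none of the 5 was used to name a class. The limits behind the names were chosen with the cluster means in view, so the levels by class below describe the classes and are not an independent test of them. At E14.5, both Msx genes were highest in rhombic lip progenitors and in choroid plexus-like cells. The R-spondins were highest in progenitors with low Hox expression, far above those with high Hox expression, and choroid plexus-like cells came next for Rspo1 and Rspo2. For Rspo3 choroid plexus-like cells shared that place with a small cluster of mesenchyme, vessel and microglia markers. The classes were named from marker lists. Hox-negative and Hox-positive rhombic lip progenitor-like cells both expressed neural progenitor markers and Atoh1. Their summed level of 7 caudal Hox genes was 74.5 to 104 CPM per control library in the Hox-negative class and 631 to 839 CPM in the Hox-positive class. Hox-positive Atoh1-high cells had the highest Atoh1 level (580 ± 111 CPM, SD, n = 3).

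The naming rules held no roof plate class, and the 5 roof plate markers were left out of the clustering, so such a class could not be returned. The summed level of the 5 roof plate markers (Lmx1a, Gdf7, Wnt1, Wnt3a and Bmp6) was highest in the Hox-negative class, at 153 to 241 CPM per control library, and it was 119 to 176 CPM in choroid plexus-like and 51.9 to 99.2 CPM in Hox-positive progenitor-like cells. Wnt1 gave 108 ± 26.0 CPM of that sum in the Hox-negative class, whereas Gdf7, which defines the roof plate itself, stood at 0.556 ± 0.67 CPM (SD, n = 3). The label "roof plate" is therefore not borne out by Gdf7 for the Hox-negative class, and the genes are described by class.

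Among control libraries of E14.5, Msx1 was highest in choroid plexus-like (359 ± 116 CPM), Hox-negative (283 ± 99.8 CPM) and Hox-positive progenitor-like cells (255 ± 104 CPM, SD, n = 3 each). Those 3 classes overlapped in range. Hox-positive Atoh1-high cells (40.8 ± 19.2 CPM) and granule progenitor-like cells (36.7 ± 14.6 CPM) followed, and their libraries overlapped each other but lay below every library of the first 3 classes. Msx1 was 0.626 ± 0.16 CPM in differentiated neuron-like cells but 11.1 ± 1.98 CPM in the other, unnamed neurons, which held 7.39% of its UMIs in control libraries. Within the latter, a cluster of 458 control cells led by Hoxb3os, Hoxb2, Lhx2 and Nhlh1 had Msx1 at 55.1 ± 3.63 CPM (SD, n = 3), above the means of the Atoh1-high and granule progenitor-like cells. That cluster was chosen after its values were seen. Msx1 was thus not limited to the progenitor and choroid plexus-like classes, although it was highest there, on both sides of the Hox boundary.

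Msx2 followed a like order with a lower place for the choroid plexus. Its level was 169 ± 67.8 CPM in Hox-negative and 143 ± 41.0 CPM in Hox-positive progenitor-like cells, which overlapped. Choroid plexus-like cells had 75.8 ± 13.0 CPM and granule progenitor-like cells 51.3 ± 24.5 CPM (SD, n = 3), which overlapped each other. The fall from granule progenitor-like to Atoh1-high cells (15.2 ± 7.0 CPM) held in every library of either class.

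Rspo1 was at 121 ± 26.0 CPM in the Hox-negative class and at 1.51 ± 0.98 CPM in the Hox-positive class (SD, n = 3), with 7 UMIs over the 3 control libraries of the latter. Choroid plexus-like cells held 21.4 ± 12.5 CPM, and no library of 1 of these 3 classes overlapped a library of another. Of all Rspo1 UMIs of a control library, 89.6 ± 0.48% were in Hox-negative progenitor-like cells, which were 4.79 ± 0.60% of its cells (SD, n = 3).

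Rspo2 was at 28.4 ± 5.49 CPM in the Hox-negative class and 9.93 ± 3.69 CPM in choroid plexus-like cells, without overlap, and 1 Rspo2 UMI was found in the Hox-positive class over the 3 control libraries. Rspo3 was at 99.7 ± 21.2 CPM in the Hox-negative class, 48.9 ± 9.58 CPM in choroid plexus-like cells and 8.11 ± 1.39 CPM in the Hox-positive class (SD, n = 3), again without overlap. Rspo3 was also found at a low level over many neurons. Differentiated neuron-like cells (3.54 ± 1.09 CPM) and the other, unnamed neurons (5.19 ± 1.58 CPM, SD, n = 3) held 20.2% and 12.3% of its UMIs in control libraries, with 595 and 325 UMIs. A small cluster with markers of mesenchyme, vessels and microglia held it at 33.0 and 68.3 CPM in the 2 control libraries with enough cells, from 31 of 2687 control UMIs. The Hox-negative class gave 64.3 ± 6.47% of the Rspo2 UMIs and 55.0 ± 11.6% of the Rspo3 UMIs of a control library, against 42.8% of the Msx1 and 41.9% of the Msx2 UMIs.

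**Figure D1:**
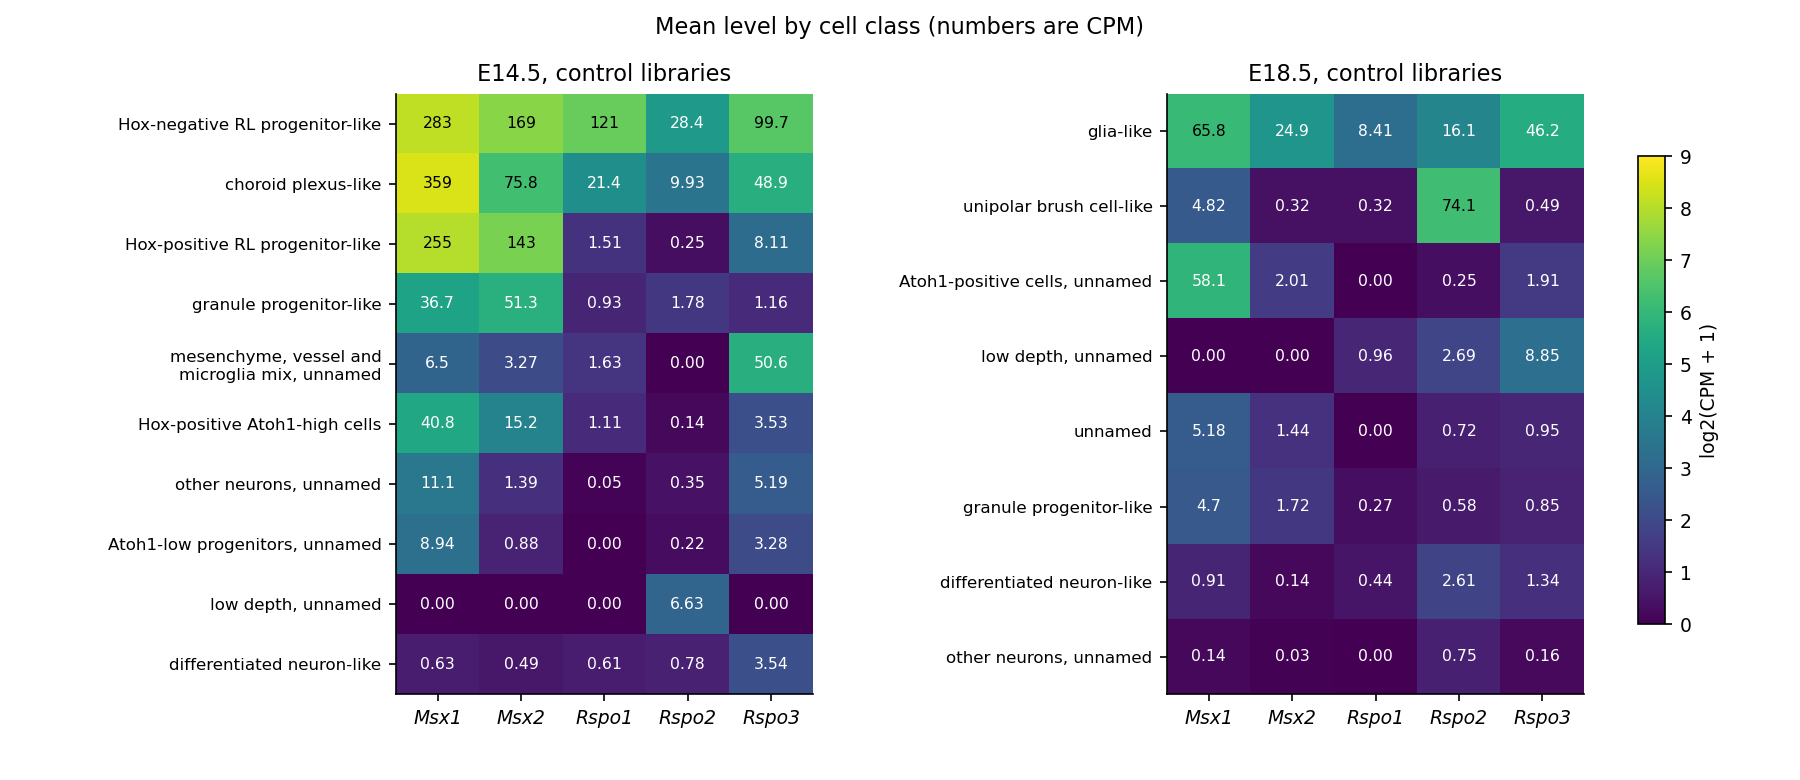
Mean level of each of the 5 genes (columns, CPM printed in each cell) in each cell class (rows) over the control libraries of E14.5 and of E18.5, with the color on a log2(CPM + 1) scale. Rspo1 reads 121 in the E14.5 Hox-negative class and 1.51 in the Hox-positive class, while Msx1 reads 283 and 255 in the same pair of classes.

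Across the 31 E14.5 clusters, which share libraries and differ in depth, the log2(CPM + 1) values of Msx1 and Msx2 correlated at r = 0.929 and those of Rspo1 and Rspo2 at r = 0.852. Rspo3 correlated with Rspo1 at r = 0.761 and with Rspo2 at r = 0.624, and with Msx1 and Msx2 at r = 0.589 and r = 0.600. The 6 correlations between an Msx gene and an R-spondin ran from r = 0.555 (Msx1 and Rspo2) to r = 0.735 (Msx2 and Rspo1). Among 12858 genes ranked, those most like Msx1 were Wls (the carrier that brings Wnt proteins to the cell surface, r = 0.936), Smad6 (an inhibitor of BMP signaling, r = 0.933), Msx2, Kctd14 (r = 0.924) and Ift74 (r = 0.922). Those most like Msx2 were Kctd14 (r = 0.949), Htra1 (r = 0.930), Msx1, Cd109 (r = 0.917) and Smad6 (r = 0.916). Wnt3a, a Wnt ligand of the dorsal midline, was the gene most like Rspo1 (r = 0.951), followed by Cldn19 (r = 0.950), Wnt9a (r = 0.895), Ccdc190 (r = 0.894) and Arc (r = 0.883). For Rspo2 the list was Sntb1 (r = 0.942), Runx2 (r = 0.912), Smad9 (r = 0.868), Wnt3a (r = 0.867) and Rspo1, and for Rspo3 it was Ctgf (r = 0.867), Wnt9a (r = 0.830), Nlrx1 (r = 0.815), Decr1 (r = 0.784) and Wnt3a (r = 0.782). Wnt3a thus stood among the 5 nearest genes of each of the 3 R-spondins.

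Within the Hox-negative class, the same single cells often held several of the genes. With each cell thinned to 5000 UMIs, Rspo1 was found in 49.4% of control cells that held Rspo2 and in 19.96% of those that did not. In mutant libraries the shares were 40.5% and 21.6%. Rspo3 was found in 39.1% of control cells with Rspo1 and 19.1% of those without it, and in 46.2% and 21.8% in mutant libraries. Each of these orders held in 3 of 3 libraries of either genotype. Some orders across the families held as well. Msx1 was found in 61.4% of control cells with Rspo3 and 40.7% of those without it, and in 70.7% and 43.5% in mutant libraries. For Msx2 with and without Rspo2 the shares were 72.0% and 38.7% in control and 48.1% and 38.6% in mutant libraries. Both held in 3 of 3 libraries of either genotype, while the other pairs of an Msx gene and an R-spondin did not hold in all of them. The 2 Msx genes did not keep 1 order. Msx1 was found in 51.7% of control cells with Msx2 against 41.0% of those without, and in 46.8% against 54.2% in mutant libraries.

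Over all kept cells at E14.5, each of the 5 genes was higher in the mutant libraries in every littermate pair. Msx1 stood at 43.5, 34.0 and 21.4 CPM in control libraries 1, 2 and 3 and at 87.0, 99.6 and 85.1 CPM in the mutant libraries, with no overlap. Msx2 stood at 33.2, 16.9 and 12.3 CPM in control and 48.8, 40.1 and 26.9 CPM in mutant libraries. For Msx2 the groups overlapped, since control library 1 was above mutant library 3. Rspo1 was at 6.07, 7.46 and 6.44 CPM in control libraries and 12.8, 24.2 and 13.1 CPM in mutant libraries, with no overlap and with mutant library 2 far above the other two.

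Rspo2 was at 2.78, 1.44 and 2.64 CPM in control and 6.64, 2.81 and 4.75 CPM in mutant libraries. The groups only just did not overlap. Rspo3 was at 8.60, 9.31 and 9.41 CPM in control and 23.4, 14.4 and 20.2 CPM in mutant libraries, which were separate by a wide margin. A two-sided exact permutation test of the library values gave p = 0.1, the smallest they can give, for Msx1, Rspo1, Rspo2 and Rspo3, and p = 0.2 for Msx2. Every mutant library lay above every control library for 12.1% of all genes tested. In a sum over all cells, fewer cells of a type and less RNA per cell cannot be told apart, and the classes are taken up below.

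**Figure D2:**
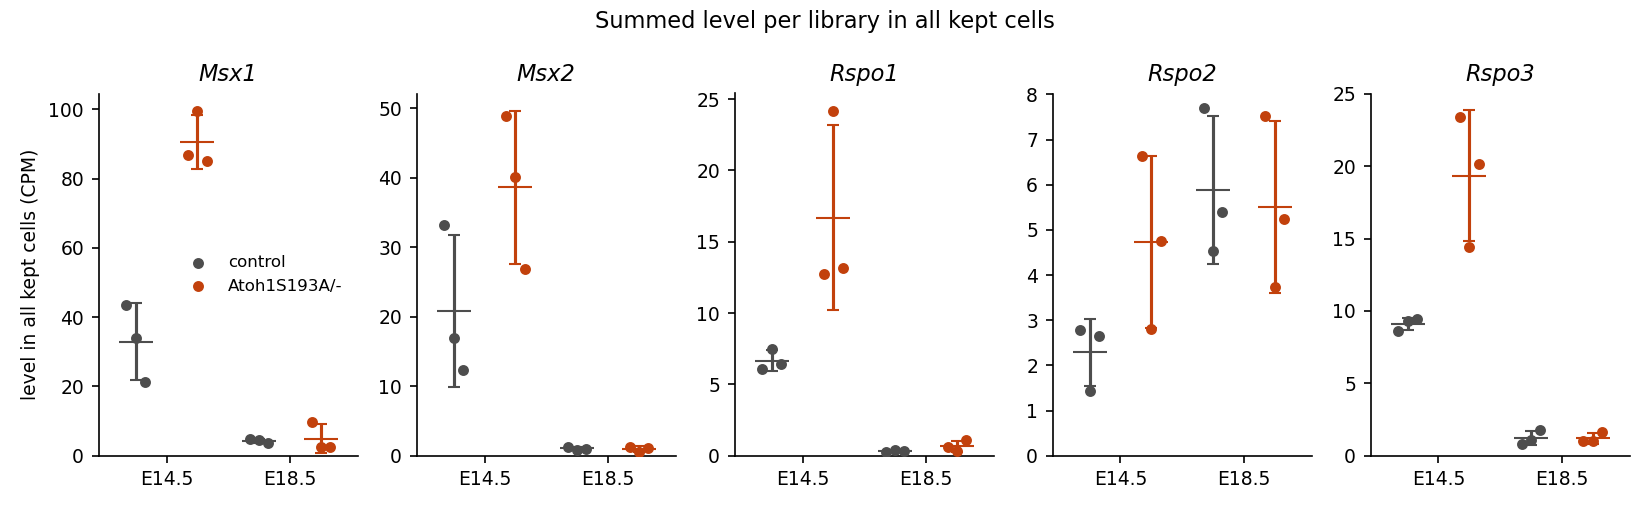
Level of each of the 5 genes (CPM, vertical axis, separate scale per gene) in each library, summed over all kept cells, by genotype at E14.5 and E18.5. Points are libraries, and bars are the mean ± SD (n = 3). At E14.5 the Msx1 points lie between 21.4 and 43.5 CPM in control and between 85.1 and 99.6 CPM in mutant libraries, and at E18.5 the genotypes overlap.

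By edgeR's quasi-likelihood test without littermates, the log2 differences were 1.41 (SE 0.23) for Msx1, 0.86 (SE 0.37) for Msx2, 1.27 (SE 0.26) for Rspo1, 1.01 (SE 0.38) for Rspo2 and 1.04 (SE 0.19) for Rspo3. Adjusted p-values ran from 0.26 for Msx1 to 0.43 for Msx2. None of the 5 was called (adjusted p under 0.05 and a log2 difference over 0.25), and 0% of the 17604 genes tested were called, although 2092 had an unadjusted p under 0.05. DESeq2 called 3 of the 5 (Msx1, Rspo1 and Rspo3), among 522 genes. With the littermate pairs as a term in edgeR, all 5 were called higher, where 13.8% of all genes were called and 8.82% were called higher. The log2 differences were then 1.46 (SE 0.16, adjusted p = 0.0085) for Msx1, 0.93 (SE 0.12, adjusted p = 0.010) for Msx2, 1.22 (SE 0.13, adjusted p = 0.0085) for Rspo1, 0.97 (SE 0.13, adjusted p = 0.011) for Rspo2 and 1.00 (SE 0.16, adjusted p = 0.015) for Rspo3. Without the pair of replicate 3 Rspo3 was no longer called (adjusted p = 0.061), where 2.56% of genes were called. Without the pair of replicate 1 or 2 all 5 were called, as were 10.8% and 11.7% of genes. Against control library 3 alone, the 1 control made with the Cell Ranger version of the mutant libraries, the log2 differences were 2.01, 1.57, 1.30, 0.77 and 0.97 in the same order. They are given as values only, since a single control has no spread of its own.

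The numbers of cells in the classes that express these genes also differed. Hox-negative progenitor-like cells were 4.79 ± 0.60% of control and 10.9 ± 1.38% of mutant cells, and Hox-positive progenitor-like cells were 1.68 ± 0.39% and 6.49 ± 1.60% (SD, n = 3 each). Choroid plexus-like cells were 0.772 ± 0.17% and 2.91 ± 2.33%. None of these 3 classes overlapped between genotypes, and each gave p = 0.1 by the exact permutation test, the smallest it can give. The other, unnamed neurons went the other way without overlap, at 22.2 ± 2.65% of control and 17.6 ± 0.89% of mutant cells (exact permutation p = 0.1). Hox-positive Atoh1-high cells (4.76 ± 3.27% and 5.09 ± 2.81%, exact permutation p = 0.9) and granule progenitor-like cells (12.04 ± 6.35% and 13.2 ± 8.93%, exact permutation p = 0.7) overlapped widely. These are shares of the sorted cells that were kept, so the gate, the mitochondrial limit and the other classes enter into them.

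To set the class shares and the levels in a class side by side, each pair's difference was recomputed from the 10 classes, first with the mutant shares and the control levels and then the other way round. A share here was the part of a library's UMIs, not of its cells, that a class held, so UMIs per cell enter into it. With the shares alone exchanged, Msx1 had a log2 difference of 1.21 ± 0.28 per pair (SD, n = 3 pairs), against a measured 1.51 ± 0.50. With the levels alone exchanged it was 0.41 ± 0.24. For Msx2 the values were 1.06 ± 0.14 with the shares, 0.013 ± 0.27 with the levels and 0.98 ± 0.37 as measured.

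For the R-spondins the shares alone gave 1.16 ± 0.18 for Rspo1, 0.94 ± 0.21 for Rspo2 and 0.85 ± 0.061 for Rspo3, beside measured log2 differences of 1.27 ± 0.37, 1.02 ± 0.21 and 1.06 ± 0.41. The levels alone gave 0.13 ± 0.21, 0.17 ± 0.27 and 0.15 ± 0.44. The exchange of shares gave a positive value in 3 of 3 pairs for each of the 5 genes. The exchange of levels did so only for Msx1, and for the other 4 genes its sign differed between pairs. This arithmetic depends on how finely the cells were classed and carries no test.

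**Figure D3:**
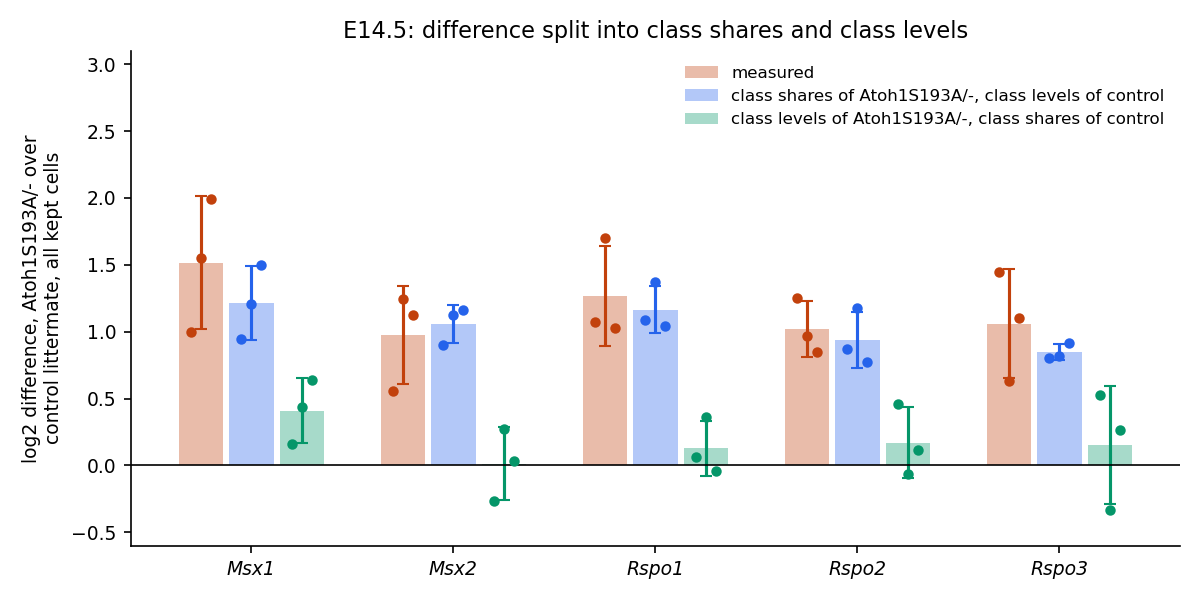
Log2 difference of the mutant to the control library of each E14.5 littermate pair (vertical axis) for each gene, as measured, with the class shares of UMIs alone exchanged and with the class levels alone exchanged. Points are the 3 pairs. For Msx2 the measured and shares-only values average 0.98 and 1.06, and the levels-only values lie around 0.

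Within the Hox-negative class, where all 5 genes were well measured, the genotypes overlapped for each of them. The class held 753 control and 1977 mutant cells. Msx1 was at 358, 322 and 170 CPM in control libraries 1, 2 and 3 and at 335, 440 and 275 CPM in mutant libraries. Msx2 was at 230, 180 and 95.9 CPM in control and 152, 192 and 82.3 CPM in mutant libraries. Both Msx genes were lowest in replicate 3 of either genotype.

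In the same class Rspo1 was at 94.0, 146 and 122 CPM in control and 90.0, 184 and 111 CPM in mutant libraries, and its highest value was in replicate 2 of either genotype. Rspo2 was at 31.0, 22.1 and 32.2 CPM in control and 39.9, 16.3 and 34.9 CPM in mutant libraries, and Rspo3 at 90.8, 84.3 and 124 CPM and at 146, 73.0 and 130 CPM. Both were lowest in replicate 2 of either genotype. None of the 5 was called, with 0% of genes called without the littermate pairs and 1.54% with them. With the pairs, the log2 differences were 0.34 (SE 0.11, adjusted p = 0.20) for Msx1, -0.24 (SE 0.099, adjusted p = 0.33) for Msx2, 0.049 (SE 0.085) for Rspo1, 0.021 (SE 0.14) for Rspo2 and 0.17 (SE 0.13) for Rspo3 (edgeR quasi-likelihood test, Benjamini-Hochberg adjustment). Without the pair of replicate 1, Msx1 was called in the Hox-negative class (log2 difference 0.55), where 3.39% of genes were called. Without that of replicate 2, Msx1 (0.31), Msx2 (-0.41) and Rspo3 (0.36) were, where 3.68% of genes were called, and without that of replicate 3 none was (0.478%). Against control library 3 alone the difference of Msx1 in the class was 0.99 and that of Msx2 was 0.51, given as values only.

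The non-cycling and the cycling cluster of the Hox-negative class, each tested alone, gave no call for any of the 5. Markers of meninges and mesenchyme, led by Dcn, summed to 47.8 to 90.4 CPM in control and 3.33 to 14.2 CPM in mutant libraries of the class, with up to 5 of the 7 genes at 0 in a library. Neural progenitor markers summed to 6822 to 8233 CPM and 4232 to 6960 CPM. The part of either in these values was not tested.

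By cells, Msx1 was found in 45.0 ± 5.54% of control and 53.4 ± 8.29% of mutant Hox-negative cells after thinning to 5000 UMIs (SD, n = 3, exact permutation p = 0.2), and Rspo1 in 23.7 ± 4.56% and 25.4 ± 7.19% (exact permutation p = 0.8). Differentiated neuron-like cells, taken as a background on the assumption that they lack both, gave 0.308% and 0.96% for Msx1 and 0.329% and 0.383% for Rspo1. Their Msx1 level was 0.698, 0.740 and 0.439 CPM in control and 1.76, 3.09 and 1.83 CPM in mutant libraries. The background for Msx1 was thus not equal between genotypes. Before thinning the Hox-negative shares were 59.6% and 68.5% for Msx1 and 35.4% and 40.5% for Rspo1, at median depths of 18202.5 and 19797.5 UMIs, where the neuron-like cells had 17478 and 18868 UMIs. Thinning left out 17 control and 16 mutant cells of the class.

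Hox-positive progenitor-like cells (260 control and 1163 mutant cells) had levels of Msx1 and Msx2 that overlapped between genotypes, and levels of Rspo1 and Rspo3 that did not. Msx1 was at 231, 368 and 165 CPM in control and 215, 421 and 214 CPM in mutant libraries, and Msx2 at 162, 171 and 96.2 CPM and at 146, 166 and 87.6 CPM. Rspo1 was at 2.22, 0.394 and 1.90 CPM in control libraries, from 7 UMIs in all, and at 3.51, 5.84 and 13.7 CPM in mutant libraries. Rspo3 was at 6.67, 9.44 and 8.23 CPM in control and 16.2, 11.8 and 25.05 CPM in mutant libraries.

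Neither Rspo1 nor Rspo3 overlapped between genotypes in the Hox-positive class, and every mutant library lay above every control library for 6.19% of genes. Without the littermate pairs none of the 4 genes tested was called, and 0.0085% of genes were. With the pairs the log2 difference of Rspo1 was 2.43 (SE 0.49). It is given as a value and not as a call, since the control libraries held 3, 1 and 3 UMIs and the gene passed the filter (at least 10 UMIs in at least 3 libraries) through the mutant libraries alone. Rspo3 was not called with the pairs (0.95, SE 0.25, adjusted p = 0.12), where 0.893% of genes were called. Without the pair of replicate 2 it was called (1.44, adjusted p = 0.0044, 1.47% of genes called), and without the pair of replicate 1 or 3 it was not (0.988% and 0.314%). Over all alternatives its difference ran from 0.21 to 1.44, the lowest with a mitochondrial limit of 10%. The log2 differences of Msx1 (0.10) and Msx2 (-0.16) with the pairs were not called, and against control library 3 alone they were 0.65 and 0.35. With a pair left out Rspo1 no longer passed the filter on low counts and was not tested. The Rspo1 difference without the pairs was 2.52, and it came down to 0.87 when putative doublets were kept and to 0.18 with a mitochondrial limit of 10%.

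The mutant Rspo1 level in the Hox-positive class, 7.67 ± 5.32 CPM, was still a small part of the 128 ± 49.2 CPM of the mutant Hox-negative class. Differentiated neuron-like cells of the same libraries held 0.857 ± 0.23 CPM. The share of Hox-positive cells with an Rspo1 UMI after thinning was 2.26% in control and 2.36% in mutant libraries, and before thinning 2.65% and 5.39%. At this depth the shares of cells do not show the difference in level.

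**Figure D4:**
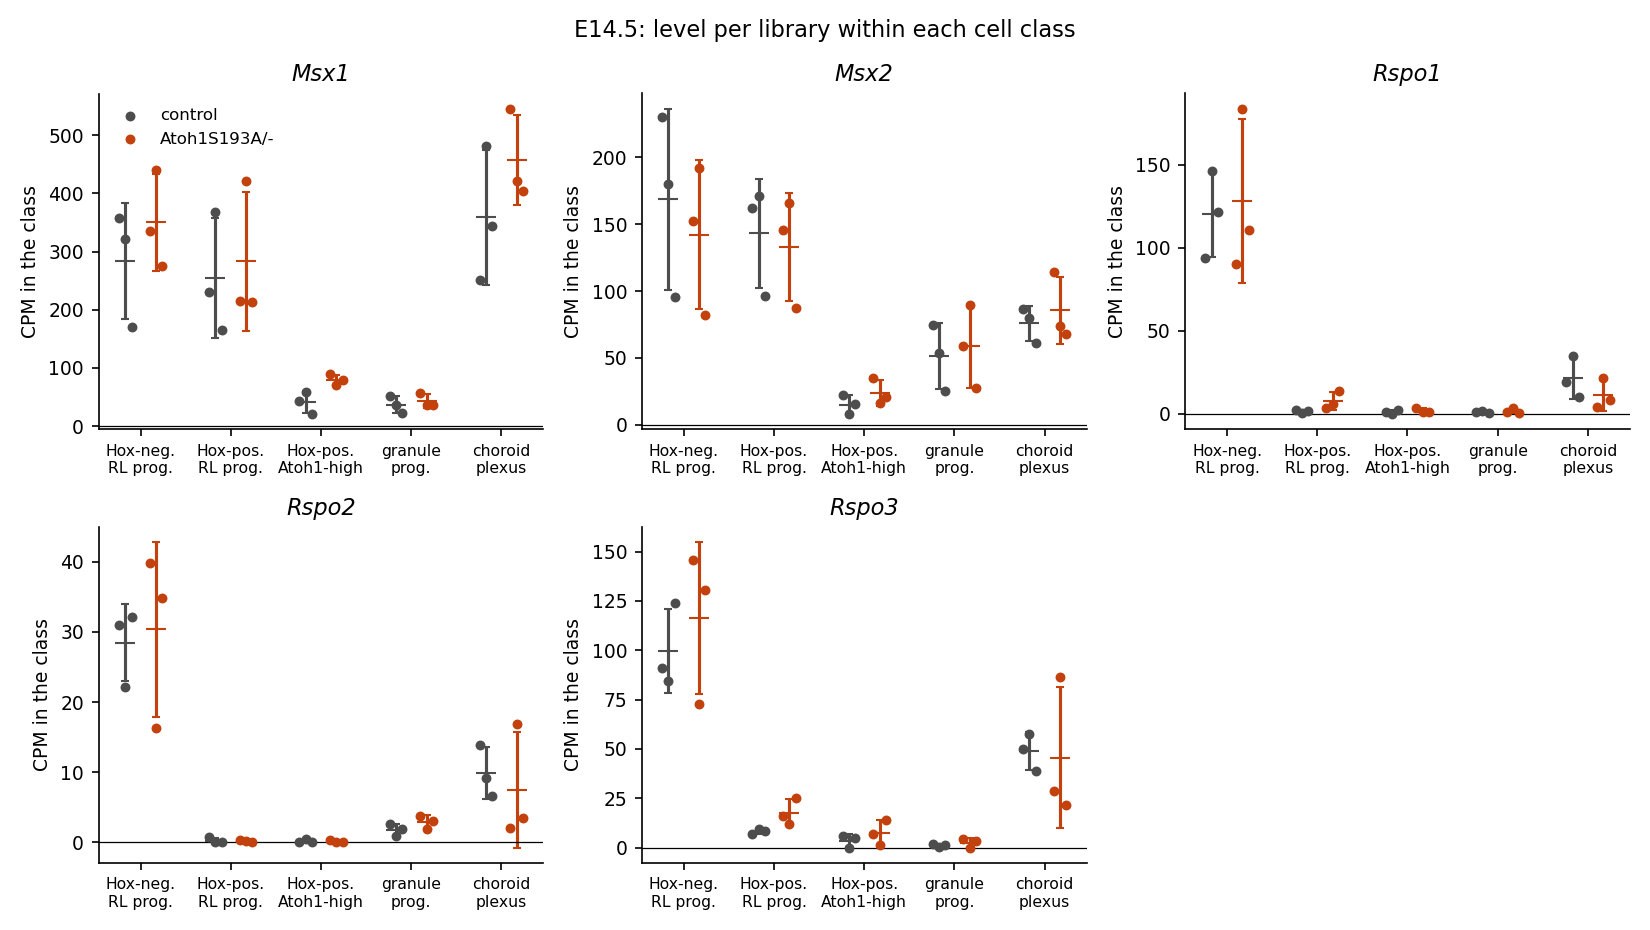
Level of each gene (CPM, vertical axis) in each library of E14.5 within 5 cell classes, with control and mutant libraries side by side. Points are libraries. The genotypes overlap for all 5 genes in the Hox-negative class, and the Msx1 points of Hox-positive Atoh1-high cells lie at 20.7 to 58.8 CPM in control and 70.4 to 88.7 CPM in mutant libraries.

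In Hox-positive Atoh1-high cells (654 control and 872 mutant cells), Msx1 was at 42.9, 58.8 and 20.7 CPM in control and 88.7, 70.4 and 79.3 CPM in mutant libraries. The groups did not overlap, as for 5.67% of genes. Msx2 was at 22.1, 8.10 and 15.3 CPM in control and 35.1, 16.3 and 20.5 CPM in mutant libraries, which overlapped, but it was higher in the mutant library of each pair. Without the pairs neither was called (log2 differences 0.99, SE 0.27, adjusted p = 0.34, and 0.62, SE 0.34, adjusted p = 0.87), and 0.172% of genes were. With the pairs, Msx1 (1.06, SE 0.19, adjusted p = 0.0038) and Msx2 (0.63, SE 0.16, adjusted p = 0.036) were called higher, where 2.77% of genes were called.

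Msx1 remained called in Hox-positive Atoh1-high cells with each pair left out in turn, and Msx2 was called without the pair of replicate 3 only. Without the pairs of replicate 1, 2 and 3, 2.84%, 2.68% and 2.79% of all genes were called. Against control library 3 alone the differences were 1.90 for Msx1 and 0.63 for Msx2, and over all alternatives that of Msx2 ran from 0.22 to 0.98. Rspo3 stood at 5.79, 0 and 4.81 CPM in control and 7.05, 1.09 and 13.99 CPM in mutant libraries and was not called. After thinning, Msx1 was found in 14.7 ± 5.43% of control and 23.4 ± 2.60% of mutant Atoh1-high cells (exact permutation p = 0.1). Msx1 in these cells was below its level in the progenitor-like classes in every library of either genotype.

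In granule progenitor-like cells of E14.5 the genotypes overlapped for Msx1 (36.7 ± 14.6 and 42.5 ± 11.9 CPM, SD, n = 3) and Msx2 (51.3 ± 24.5 and 58.9 ± 31.2 CPM), and the R-spondins stayed under 3 CPM on average in either genotype. None of the 5 was called, with 0% of genes called without and 1.61% with the littermate pairs. In choroid plexus-like cells Msx1 was at 251, 482 and 344 CPM in control and 546, 421 and 405 CPM in mutant libraries. Rspo3 was at 48.9 ± 9.58 and 45.6 ± 35.6 CPM there. Again none was called, with 0.129% and 0.805% of genes called. The summed choroid plexus markers over all kept cells ran from 771 to 2601 CPM in control and from 1743 to 13272 CPM in mutant libraries, and their part in the sums over all cells was not tested apart from the exchange of shares above.

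The other genes of the 2 pathways were counted from 8 lists (60 genes). Over all kept cells of E14.5, 59 were tested, and none was called without the littermate pairs (0% of all genes). With the pairs 27 were called higher and 1 lower, where 13.8% of all genes were called and 8.82% were called higher. Of the R-spondin receptors and ligases, 2 of 5 were higher, the receptor Lgr5 (log2 difference 0.94) and the ligase Znrf3 (0.47, from 7.29 to 10.3 CPM). Among Wnt ligands 4 of 10 were higher, Wnt1 (1.23, from 8.02 to 19.5 CPM), Wnt3a (1.37, from 1.42 to 3.74 CPM), Wnt9a (1.25) and Wnt5a. Of the Wnt effectors and targets 5 of 7 were higher, with Axin2, a feedback target of Wnt signaling, at 36.3 and 68.5 CPM (0.87), followed by Tcf7, Tcf7l1, Lef1 and Nkd1.

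On the BMP side of the same fit (8.82% of all genes called higher), 4 of 7 ligands were higher. They were Bmp4 (1.23), Bmp6 (0.85), Bmp7 (1.09) and Gdf7 (2.49, from 0.0996 to 0.583 CPM). Of 8 receptors and Smads, 3 were higher (Bmpr1a, Smad5 and Smad9). Of 7 targets, Id1 (0.92, from 101 to 191 CPM), Id3 (0.92, from 147 to 271 CPM), Smad6 and Bambi were higher, and Id4 was lower (-0.25). The antagonist Nog (0.33) was the only 1 of 6 called. Among the dorsal factors, Msx3, the family mate of Msx1 and Msx2, was called higher (0.82, from 9.29 to 16.6 CPM), as were Pax3 and Olig3. Rspo4, the remaining R-spondin, was at 0.114 and 0.156 CPM.

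The median log2 difference with the pairs was 0.43 for the R-spondin receptors and ligases, 0.47 for Wnt ligands, 0.69 for Wnt effectors, 0.85 for BMP ligands and 0.62 for BMP targets. It was 0.10 for BMP receptors and Smads, 0.18 for BMP antagonists and 0.40 for the dorsal factors, beside 1.00 for the 5 genes and 0.0054 for all genes tested.

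Within the progenitor classes fewer pathway genes were called, as was so for all genes, of which 13.8% were called over all kept cells, 1.54% in the Hox-negative class and 0.893% in the Hox-positive class. In the Hox-negative class 49 of the 60 genes were tested and, with the pairs, 1 was called higher and 4 lower. Axin2 was the higher one (log2 difference 0.57, from 125 to 189 CPM). The BMP targets Id1 (-0.55, from 958 to 665 CPM), Id3 (-0.61, from 1536 to 984 CPM) and Id4 (-0.94, from 66.4 to 35.5 CPM) and the BMP antagonist Nog (-0.73, from 51.2 to 30.6 CPM) were lower. Id1 and Id3 thus stood higher over all kept cells and lower within this class.

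In the Hox-positive class 45 were tested, none was called higher, and Nkd1 (-0.55), Id1 (-0.41), Id2 (-0.41) and Pax3 (-0.57) were called lower. In Hox-positive Atoh1-high cells 4 of 36 were higher and 2 lower, where 2.77% of genes were called. Among the higher was Lgr4, a receptor of R-spondins, which went from 7.68 to 21.96 CPM and was called without the pairs too (log2 difference 1.53, SE 0.19, adjusted p = 0.015). Msx3 (0.70), Fst and Nbl1 were the other genes called higher there, and Id2 (-0.50) was among the lower. In granule progenitor-like cells Wnt5a and Pax3 were called higher and Id1, Id2 and Id3 lower among 42 tested, where 1.61% of genes were called. In choroid plexus-like cells none of 39 was called (0.805% of genes).

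**Figure D5:**
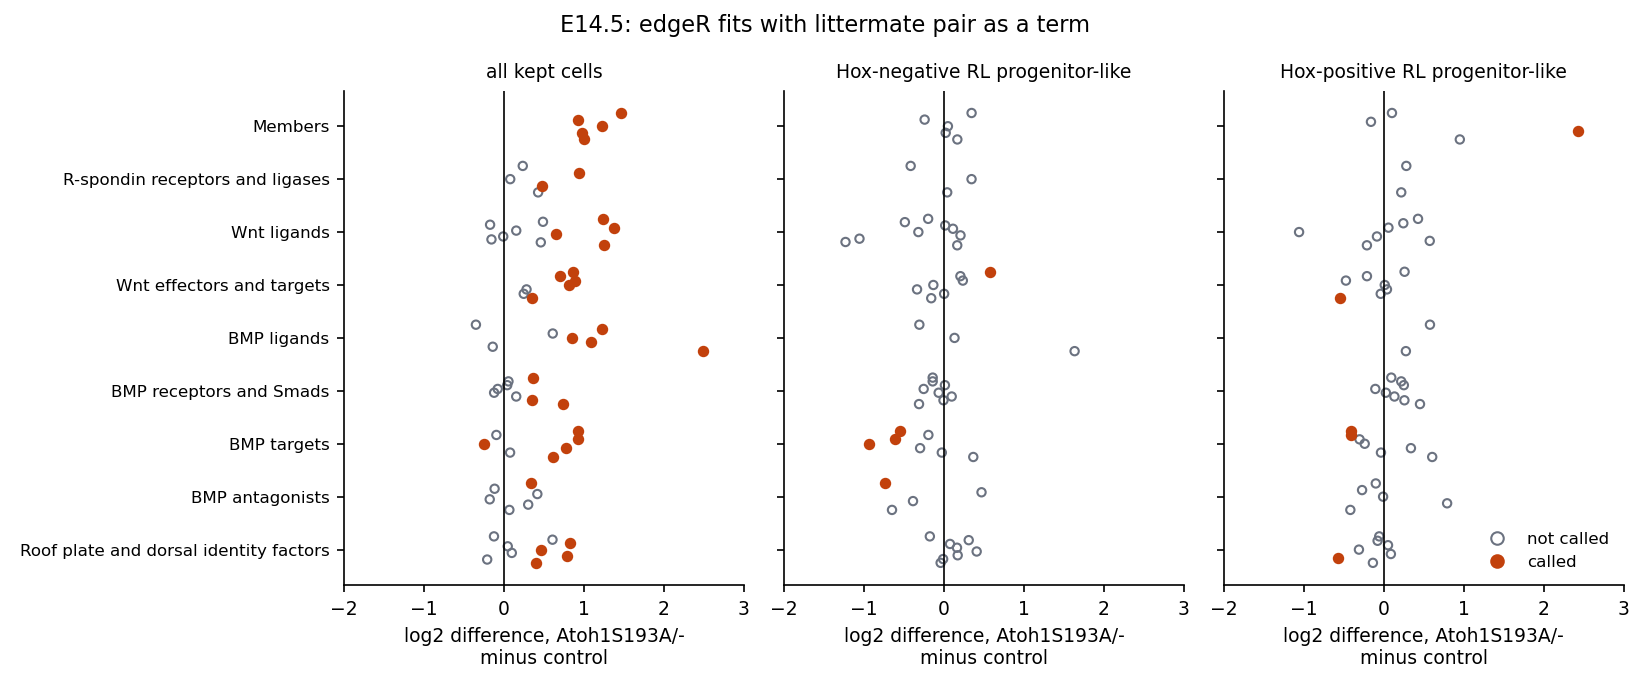
Log2 difference between mutant and control libraries of E14.5, with littermates as a term, for the 5 genes and the genes of 8 pathway lists, in all kept cells and in the Hox-negative and Hox-positive classes. Each point is a gene, and filled points were called. Over all kept cells all 5 of the Msx and R-spondin genes are filled and their median is 1.00, while in the Hox-negative class none is filled and their median is 0.049.

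From E14.5 to E18.5, Msx1, Msx2, Rspo1 and Rspo3 fell in control libraries and Rspo2 rose. In the sum of all kept cells, mean control levels at E14.5 were 7.70 times those at E18.5 for Msx1, 19.995 times for Msx2, 20.4 times for Rspo1, 7.56 times for Rspo3 and 0.389 times for Rspo2. All 5 were called (log2 differences -3.01, -4.38, -4.44, -3.003 and, for Rspo2, 1.29, adjusted p = 0.0083), but 45.4% of all genes were called between the stages and 22.8% were lower at E18.5. Without the 2 control libraries made with Cell Ranger 3.1.0, the rise of Rspo2 was no longer called (1.02, adjusted p = 0.057), in a fit that assumes the 1 remaining E14.5 control to vary like those of E18.5.

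Granule progenitor-like cells were named at both stages by the same limits, but the class need not hold the same cells. Of the 10 clusters of E18.5 in the class, 8 had no granule lineage marker among their 10 leading genes, and the leading genes of most were those of cycling cells. Between the stages Msx1 (-3.003), Msx2 (-4.93), Rspo1 (-1.60, adjusted p = 0.049) and Rspo2 (-1.75, adjusted p = 0.0096) were called lower at E18.5 and Rspo3 (-0.59, adjusted p = 0.32) was not called, where 37.8% of genes were called and 18.6% were lower. Rspo1 lost its call without any one of 5 of the 6 control libraries (adjusted p = 0.051 to 0.15). The values of the R-spondins depended on how the class was drawn. With finer clusters the log2 differences were -5.91 for Rspo1, -3.02 for Rspo2 and -3.53 for Rspo3, and with a mitochondrial limit of 10% they were -5.28, -3.001 and -3.28, and all 3 genes were then called. With putative doublets kept, that of Rspo1 was -2.93. Of the 56 pathway genes tested between stages over all kept cells, 14 were higher and 23 lower at E18.5, where 45.4% of all genes were called and 22.8% were lower. Wnt3a (-5.09), Msx3 (-5.02), Wnt1 (-4.35) and Id3 (-4.31) were among the pathway genes that were lower, and Lgr5 (1.08) and Lgr4 (0.91) among those higher.

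At E18.5 no cluster was named rhombic lip progenitor-like by the limits used, and the classes with most of each gene's UMIs were others. The paper reports progenitors among its pontine nuclei cells of E18.5, so the missing name does not show that progenitors were absent. Rspo2 was a gene of unipolar brush cell-like cells, an excitatory interneuron of the cerebellum, which held 77.6% of its UMIs in control libraries. Its level there was 84.3, 63.3 and 74.7 CPM in control and 82.9, 72.4 and 75.8 CPM in mutant libraries, which overlapped (log2 difference 0.052). Msx1 was highest in glia-like cells (65.8 ± 61.6 CPM, SD, n = 3) and in a small unnamed class of Atoh1-positive cells, where it was at 63.5, 56.1 and 54.7 CPM in control and 79.1, 62.3 and 19.1 CPM in mutant libraries (log2 difference 0.12). Mutant library 3 stood far below the other 5 libraries in that class. Granule progenitor-like cells, which held 37.5 ± 4.05% of control cells, carried 49.6% of the Msx1 UMIs and 74.6% of the Msx2 UMIs at levels of only 4.70 ± 0.71 and 1.72 ± 0.27 CPM.

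At E18.5 the genotypes overlapped for each of the 5 genes in all kept cells. Msx1 was at 4.69, 4.56 and 3.59 CPM in control and 9.87, 2.52 and 2.46 CPM in mutant libraries, so that 1 mutant library stood above and the others below all controls. Rspo2 was at 7.71, 4.53 and 5.40 CPM in control and 7.52, 3.74 and 5.24 CPM in mutant libraries. Msx2, Rspo1 and Rspo3 were under 2 CPM in every library. None of the 5 was called, with or without the littermate pairs (0% and 0.207% of genes called).

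By class, none of the 5 was called at E18.5 in granule progenitor-like cells (0.394% of genes without and 2.01% with the pairs). In the other classes fewer of the 5 passed the filter on low counts, and none of those tested was called. They were Msx1 in Atoh1-positive cells (0.459% and 0.63% of genes called), Msx1 and Rspo2 in unipolar brush cell-like cells (0.0849% and 0.815%), and Msx1, Msx2, Rspo2 and Rspo3 in glia-like cells (0% and 0%). Rspo1 in glia-like cells was at 11.0, 14.2 and 0 CPM in control and 33.3, 21.7 and 38.9 CPM in mutant libraries, without overlap, as for 3.84% of genes, but these values rest on 8 control and 83 mutant UMIs and did not pass the filter on low counts. The share of glia-like cells with an Rspo1 UMI after thinning was 3.85% in control and 6.48% in mutant libraries (exact permutation p = 0.4), and the order turned with a mitochondrial limit of 10%, to 12.8% and 5.53% (exact permutation p = 0.6). Microglia markers in the glia-like class summed to 760 to 916 CPM in control and 442 to 1204 CPM in mutant libraries, so it is a mixed class.

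Of the pathway genes at E18.5, none of 55 was called over all kept cells with or without the pairs. In unipolar brush cell-like cells 35 were tested, and the BMP receptor Bmpr1b was the only one called without the pairs (log2 difference 0.77, from 21.8 to 37.9 CPM, adjusted p = 0.024). With the pairs 3 were higher and 1 lower there, where 0.815% of genes were called. Bmpr1b (0.78), the BMP ligand Bmp4 (1.52, from 2.23 to 6.75 CPM) and the dorsal factor Pax3 (0.57, from 41.4 to 62.8 CPM) were higher, and the BMP target Id2 (-0.78, from 56.1 to 31.2 CPM) was lower. In granule progenitor-like cells 1 of 46 was called with the pairs, the Wnt ligand Wnt5a (0.31, from 19.8 to 24.7 CPM), where 2.01% of genes were called. None was called in Atoh1-positive cells (23 tested) or in glia-like cells (33 tested).

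An interaction term over the 12 libraries tested whether the genotype difference depended on stage. From E14.5 to E18.5, the log2 difference between genotypes over all kept cells fell by 1.17 for Msx1, 0.91 for Msx2, 0.25 for Rspo1, 1.09 for Rspo2 and 1.04 for Rspo3, and none was called (0% of genes). With the littermate pairs Msx2, Rspo2 and Rspo3 were called, where 9.51% of genes were. In granule progenitor-like cells none was called without the pairs (0% of genes) or with them (0.301%).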

How the data were processed

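The authors made 10x Genomics 3′ libraries, aligned them to a mm10 reference that included WPRE, and counted UMIs per gene and barcode with Cell Ranger. The deposited values are these UMI counts without normalization. The 2 libraries of P5 were not used here. Cells with at least 1000 genes and under 5% mitochondrial UMIs were kept, and the 7.5% with the highest Scrublet scores were removed from each library. Each stage was clustered with scanpy 1.11.5 in Python 3.11.15 and leidenalg 0.10.2 (2000 variable genes, 30 components, 15 neighbors, resolution 1, seed 1), without the 5 genes, the pathway genes, Atoh1, WPRE, mitochondrial and sex-linked genes. Classes were named from 16 marker lists by numerical limits that were chosen with the cluster means in view.

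UMIs were summed per library and class where a library held at least 10 cells. They were tested by edgeR 4.0.16 in R 4.3.3 (TMM, quasi-likelihood F test, Benjamini-Hochberg adjustment over all genes with at least 10 UMIs in at least 3 libraries). A gene was called at an adjusted p under 0.05 with an absolute log2 difference over 0.25. The SE printed with an edgeR log2 difference is its absolute value over the square root of the F statistic. It restates the test and was not estimated apart from it. DESeq2 1.42.0 was an alternative. The paper tested cells, whereas libraries were tested here, since cells of an embryo are not replicates. Levels are CPM, means are ± SD over libraries, and intervals of counting error were not computed. The genotype test without the littermate pairs was checked on simulated counts that held no pair effect. The fit with the pairs was not checked in this way.

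The protocol in the labels states that a control littermate was taken with each mutant embryo in independent replicates, and equal replicate numbers within a stage were read as these pairs. Their deviations from the group means correlated at 0.43 to 0.62 at E14.5 and 0.40 to 0.72 at E18.5, and those of other pairs at -0.41 to -0.060 and -0.50 to 0.24, so the fit with the pairs as a term stands beside the one without. Deviations from a mean cancel out within a genotype, so a positive value for equal numbers by itself lowers the others. Litter and shared handling of a replicate cannot be told apart by these values. The genes, pathway lists, markers, tests and alternatives were chosen with earlier results of these data known. Named were the 5 genes, Msx3, Rspo4, Atoh1, each pathway gene called in a genotype comparison, and for each of the 5 genes the 5 others of most similar profile over the E14.5 clusters (genes at 10 CPM or more in a cluster, pseudocount 1). A gene that this rule takes is not reported here, though the counts include it. Promoters come from RefSeq.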

Additional observations from a re-analysis of the deposited data

Results flagged for a closer look

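The genotype difference over all kept cells depended on stage for 3 of the 5 genes once the littermate pairs were a term in edgeR's interaction test. From E14.5 to E18.5 the log2 difference between genotypes changed by -0.99 for Msx2 (SE 0.23, adjusted p = 0.033), by -1.07 for Rspo2 (SE 0.16, adjusted p = 0.011) and by -0.95 for Rspo3 (SE 0.25, adjusted p = 0.047). Each was higher in the mutant library of 3 of 3 pairs at E14.5. Msx1 changed by more, -1.37 (SE 0.44), but was not called (adjusted p = 0.083), and Rspo1 changed by -0.21 (SE 0.38). Of all genes, 9.51% were called in this test, and 0% without the pairs. No cluster of E18.5 was given the name of the rhombic lip progenitor-like classes, which held most UMIs of these genes at E14.5. Sums over all cells therefore compare different classes, and the part of this in the change was not tested.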

How the results depend on the processing

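With the littermate pairs as a term (replicate block), the number of the 5 genes called over all kept cells of E14.5 went from 0 to 5. Of all genes, 0% were called without the pairs and 13.8% with them. With a pair left out 4 to 5 of the 5 were called, where 2.56% to 11.7% of all genes were. DESeq2 called 3, among the number of genes given above. Over the E14.5 progenitor classes the count of calls went from 0 to 3 with the block, where 0.893% to 2.77% of all genes were called by class, 2 to 5 with the block and a pair left out (0.314% to 3.68%), 1 with DESeq2 and 2 with no filter, and at E18.5 to 1 with no filter. One of the 3 and one of the 2 are Rspo1 in the Hox-positive class, with 7 control UMIs, and the 1 at E18.5 is Rspo1 in glia-like cells, with 8, so these support no difference. The count was 3 for the interaction with stage with the block. Of all genes, that test called 9.51% over all kept cells and 0.301% in granule progenitor-like cells. For the stages, a filter on a UMI in 10% of cells left 4 calls, since it tested fewer genes. The block changed no other call of the 5 genes. None of the log2 differences that took the opposite sign was itself called, although Msx2 and Rspo3 in the Hox-negative class, which turned with Cell Ranger 5.0.1 alone, were called in their first direction with the block without the pair of replicate 2. In the Hox-negative class, Rspo1 was -0.035 at resolution 0.5 and -0.011 with doublets kept, Rspo2 was -0.086 with a mitochondrial limit of 10%, and with Cell Ranger 5.0.1 alone Msx2 was 0.51, Rspo2 -0.13 and Rspo3 -0.14, while Msx1 kept its sign and rose from 0.31 to 0.99. In the Hox-positive class Msx1 was -0.13 with the mitochondrial limit of 10% and Msx2 0.35 with Cell Ranger 5.0.1 alone, where Msx1 went from 0.087 to 0.65. Over all kept cells of E18.5, Msx1 was -0.015 with the block and -0.023 with the mitochondrial limit of 10%, and Rspo3 was 0.030 with the block. Msx1 was -0.098 with DESeq2 in Atoh1-positive cells. Leaving out 1 library or pair gave ranges that crossed 0 in the Hox-negative class for Rspo1 (-0.25 to 0.27, -0.093 with the block without pair 2), Rspo2 (-0.15 to 0.41, -0.020 with the block without pair 3), Rspo3 (-0.077 to 0.47) and Msx2 (-0.52 to 0.024). It did so in the Hox-positive class for Msx1 (-0.26 to 0.43) and Msx2 (-0.35 to 0.074). Over all kept cells of E18.5 the ranges were -0.78 to 0.54 for Msx1 (-0.71 with the block without pair 1), -0.28 to 0.34 for Rspo3 (0.089 and 0.11 with the block without pair 2 and pair 3), -0.35 to 0.17 for Msx2 (0.079 with the block without pair 2) and -0.39 to 0.13 for Rspo2. They were -0.46 to 0.33 for Msx1 in Atoh1-positive cells, -0.047 to 0.15 for Rspo2 in unipolar brush cell-like cells and -0.73 to 0.081 for the interaction of Rspo1. Differences between genotypes in the share of Hox-negative cells with a UMI, in percentage points, were 3.28 for Msx2 with no thinning and -1.25 for Rspo1 and -0.795 for Rspo3 with the mitochondrial limit of 10%. With a library left out they ran from -9.25 to 2.27 for Msx2, -2.35 to 4.56 for Rspo1 and -1.08 to 3.67 for Rspo2. In the Hox-positive class the share differed by -3.40 for Msx1 and 1.28 for Msx2 with the mitochondrial limit of 10%, and for Msx2 by 1.34 thinned to 2500 UMIs and 7.65 with no thinning. With a library left out the ranges were -3.04 to 12.7 for Msx1 and -5.88 to 4.68 for Msx2. The causes were not tested. The finer and coarser clusters, the mitochondrial limit of 10% and the kept doublets were not run for Atoh1-positive cells of E18.5, a class they did not return, and the filter on a UMI in 10% of cells left none of the 5 genes in all kept cells of E18.5.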

Other observations

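At E18.5 most of the correlations between the 5 genes over clusters were lower than at E14.5. Across the 29 control clusters of that stage, which share libraries and differ in depth, the log2(CPM + 1) values of Msx1 and Msx2 correlated at r = 0.703, Rspo1 and Rspo3 at r = 0.542 and Rspo1 and Rspo2 at r = 0.11, while Msx2 and Rspo3 were at r = 0.697 against r = 0.600 at E14.5. The genes most like Rspo2 were Dclk3 (r = 0.893), Grp, a neuropeptide gene (r = 0.85), and Sulf1 (r = 0.835), the last an enzyme that trims heparan sulfate. Wnt1 stood at r = 0.848 with Msx2 and r = 0.763 with Msx1. These genes were chosen after their values were seen, and Msx2 and Rspo1 rest on 274 and 83 UMIs at this stage.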
